A study of Mus musculus with 8 samples.

Results

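Scavenger receptors bind altered lipoproteins, sugars, haemoglobin complexes and microbial surfaces and carry them into the cell. Efferocytosis is the uptake of dying cells, in which soluble bridging proteins such as Gas6 tie phosphatidylserine on the dying cell to kinases of the TAM family (Tyro3, Axl and Mertk) on the phagocyte. Tissue macrophages are the cells best known for these receptors, and blood monocytes are among the cells that can become macrophages. The 10 genes described here were Msr1, Marco, Mrc1, Cd163, Cd93, Stab1, Mertk, Axl, Gas6 and Tgm2, of 18193 genes with a probe set of their own. Every probe set annotated to exactly one of them was taken, which gave 25 of the 45037 probe sets that are not array controls.

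Monocytes were sorted from the leukocytes of C57Bl/6 mice aged 12 weeks, and the labels give no treatment or altered allele for either group. One group was Ly6Clo monocytes (Gr1lo), the nonclassical subset known to patrol vessel walls, and the other was Ly6Chi monocytes (Gr1hi), the classical subset known to enter inflamed tissue. Each group had 4 samples on 1 Affymetrix 3' expression array each, and each sort used the pooled cells of 5 mice, so differences between single animals are not seen. The array medians lay between 80.5 and 83.0 on the linear intensity scale. Monocyte identity genes were present in both subsets, with the growth factor receptor Csf1r at 14.06 ± 0.03 in Ly6Clo and 13.86 ± 0.03 in Ly6Chi (log2 intensity, mean ± SD, n = 4 each). A probe set annotated jointly to Ly6c1 and Ly6c2, which encode the sorted epitope, read 9.77 to 10.11 in the Ly6Clo arrays and 13.44 to 13.66 in the Ly6Chi arrays, so every array matched its label.

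Values are log2 intensities, and differences are Ly6Clo minus Ly6Chi. A probe set was tested if it exceeded the median of the whole table (log2 6.36) in at least 4 of the 8 arrays, and it was called if its limma p, adjusted by Benjamini-Hochberg over all 22831 tested probe sets, was under 0.05. That median stands in for background, since no detection calls were used here. Of the 25 member probe sets 15 were tested, covering 6 genes, and Marco, Cd163, Mertk and Gas6 had none that passed. In this bulk RNA, fewer cells of a kind that express a gene and less RNA per cell cannot be told apart.

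Among these genes Tgm2 was far higher in Ly6Clo monocytes, and the receptors Msr1 and Cd93 were lower. Axl and Mrc1 gave signal in both subsets without a call. Stab1 was not called either, and its means of 6.66 in Ly6Clo and 6.77 in Ly6Chi lay just over the table median. Among the 15 tested probe sets the 5 of Tgm2 were called higher in Ly6Clo, and 7 were called lower, 4 of Msr1 and 3 of Cd93. The share called among all tested probe sets was 31.1%, with 15.2% higher in Ly6Clo and 15.9% lower. Ly6Clo and Ly6Chi values were fully separate for 12 of the 15, against 31.8% of all tested probe sets. Msr1 1425435_at, counted as called and as separate, passed the filter only through its Ly6Chi values, which fixed its separation. Those 12 probe sets measure only 3 genes, and by gene 3 of the 6 tested members were called, against 32.5% of all 11546 tested genes. The median size of the difference was 0.84 over the 6 tested genes and 0.13 over all tested genes, each gene taken by its tested probe set with the highest mean. The members were chosen with earlier results of these data known, so their shares and this median are not independent of these data.

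Msr1 encodes the class A scavenger receptor SR-A (CD204), a trimer with a collagen-like stalk that binds acetylated low-density lipoprotein and bacterial surface polyanions. Its probe set 1422062_at read 8.79, 9.15, 8.73 and 8.64 in the Ly6Clo arrays, against 10.03, 10.34, 10.08 and 10.16 in the Ly6Chi arrays (replicates 1 to 4 of each). All 4 Ly6Clo values lay below all Ly6Chi values. Msr1 was 2.50-fold lower in Ly6Clo by this probe set (log2 difference -1.32, SE 0.11, limma adjusted p = 3.1e-06).

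The other Msr1 probe sets gave the same direction. Probe set 1448061_at lay between 7.93 and 8.63 in Ly6Clo, against 9.65 to 10.10 in Ly6Chi, a 3.05-fold difference. Probe set 1425434_a_at was the tightest, at 8.18 to 8.34 in Ly6Clo and 9.54 to 9.77 in Ly6Chi, with a log2 difference of -1.38 (SE 0.07, limma adjusted p = 7e-08). Probe set 1425435_at lay below the table median in every Ly6Clo array, at 4.65 to 5.30, against 6.73 to 7.29 in Ly6Chi. Its fold is therefore a lower bound, at least 1.67-fold lower in Ly6Clo, and it was tested only through its Ly6Chi values. The log2 differences of the other 3 probe sets ran from -1.61 to -1.32.

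Marco, the other class A scavenger receptor among the 10 and a marker of some tissue macrophages, gave no signal over the table median except in 1 array. Its probe set 1449498_at read 5.88, 5.83, 5.99 and 5.94 in Ly6Clo, against 5.88, 5.85, 6.36 and 5.99 in Ly6Chi. The subsets overlapped, and so they did for 1458297_s_at, at 5.33 to 5.57 in Ly6Clo and 5.25 to 5.57 in Ly6Chi. Neither probe set was tested.

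Cd93 encodes a transmembrane protein with a C-type lectin-like domain, first described as a receptor for complement C1q and later linked to adhesion and to clearance of dying cells. Probe set 1419589_at read 8.26, 9.05, 7.81 and 8.67 in the Ly6Clo arrays, against 10.51, 10.65, 10.55 and 10.12 in the Ly6Chi arrays. The highest Ly6Clo array lay more than 1 log2 unit below the lowest Ly6Chi array. Cd93 was 4.03-fold lower in Ly6Clo (log2 difference -2.01, 95% interval -2.49 to -1.53, limma adjusted p = 2.8e-05).

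The remaining Cd93 probe sets differed in size. Probe set 1456046_at gave the same order of Ly6Clo arrays and a 3.97-fold difference (SE 0.25 log2, limma adjusted p = 7.6e-05). Probe set 1449521_at sat just over the table median and differed by only -0.28, at 6.37 to 6.49 in Ly6Clo and 6.62 to 6.97 in Ly6Chi (limma adjusted p = 0.025). This call was lost without Ly6Clo replicate 4 (adjusted p = 0.072), without Ly6Clo replicate 3 (0.05) and without replicate 1 of both subsets (0.054). Probe sets 1441907_s_at and 1441908_x_at were not tested, and the first read 5.15 to 5.67 in Ly6Clo, with no overlap with 5.83 to 6.66 in Ly6Chi. Of all untested probe sets 6.23% had no overlap between the subsets.

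Neutrophils, which also bear the Gr1 epitope, are another cell known to express Cd93 in humans, so their markers stand beside these values. Of 10 tested neutrophil markers none was called higher in Ly6Clo and 5 were called lower, against 14.1% and 18.5% of all tested genes. The summed linear intensity of the neutrophil list was 1631 to 1993 in Ly6Clo and 3522 to 4128 in Ly6Chi. Mmp8 (mean log2 6.28 in Ly6Clo, 10.40 in Ly6Chi) and Csf3r (9.74 and 10.30) weigh most in the Ly6Chi sum. The 5 called lower were the collagenase Mmp8 (at least 16.4-fold), S100a8 (at least 1.86-fold), Lcn2 (at least 1.72-fold), the growth factor receptor Csf3r (1.48-fold) and Mpo (1.18-fold). The granule genes Elane, Ngp, Camp and Ltf and the gene S100a9 were not called, and Cxcr2 and Mmp9 were not tested. Cxcr2 lay below the table median in mean in both subsets, at 5.99 and 5.97. The part of neutrophil RNA in the Msr1 and Cd93 differences was not tested.

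**Figure D1:**
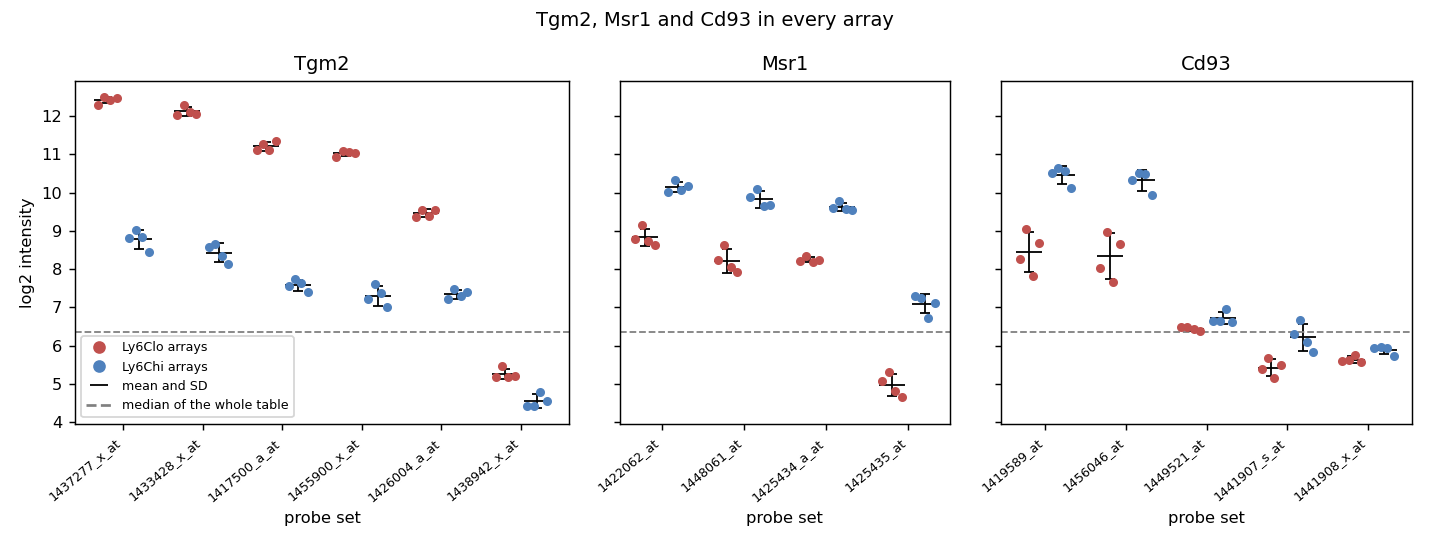
Log2 intensity (vertical axis) of every probe set of Tgm2, Msr1 and Cd93 (horizontal axis) in the 4 Ly6Clo arrays (red, left of each pair) and the 4 Ly6Chi arrays (blue, right). Black bars are mean and SD, and the dashed line is the table median of 6.36; the 5 bright Tgm2 probe sets lie higher in Ly6Clo, and those of Msr1 lie lower.

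Tgm2 encodes tissue transglutaminase, an enzyme that cross-links proteins and that, at the macrophage surface in mice, assists integrin-dependent uptake of dying cells. Its probe set 1437277_x_at read 12.30, 12.49, 12.41 and 12.49 in the Ly6Clo arrays, against 8.83, 9.02, 8.83 and 8.44 in the Ly6Chi arrays. The Ly6Clo arrays lay within 0.2 of each other and far above every Ly6Chi array. Tgm2 was 12.5-fold higher in Ly6Clo (log2 difference 3.64, SE 0.11, limma adjusted p = 1.7e-09), and only 6 of the 11546 tested genes had a larger difference toward Ly6Clo.

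Other bright Tgm2 probe sets gave nearly the same size, 12.4-fold for 1417500_a_at, 12.9-fold for 1433428_x_at and 13.3-fold for 1455900_x_at. Probe set 1426004_a_at also rose, but by 4.35-fold, at 9.38 to 9.56 in Ly6Clo and 7.22 to 7.49 in Ly6Chi. Its 95% interval for the log2 difference, 1.95 to 2.29, did not meet the interval of 1437277_x_at, 3.40 to 3.88. The sixth probe set, 1438942_x_at, was not tested, and its Ly6Clo values of 5.17 to 5.45 lay above its Ly6Chi values of 4.40 to 4.79. By Affymetrix naming, a probe set ending in x_at holds probes that may also match other transcripts, and the part of such matches in these values was not tested.

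Markers of resident macrophages, cells in which Tgm2 is known to be abundant, had 6 of 9 tested genes higher in Ly6Clo and none lower. Among all tested genes 14.1% were called higher and 18.5% lower. The summed intensity of the macrophage list was 3190, 3680, 3840 and 4600 in the Ly6Clo arrays, against 2497 to 2850 in the Ly6Chi arrays. Adgre1, the brightest of the list, weighs most in these sums, at mean log2 10.78 in Ly6Clo and 10.54 in Ly6Chi. The genes called higher were C1qa (at least 3.06-fold), C1qb (2.43-fold), C1qc (at least 2.20-fold), Spic (1.37-fold), Clec4f (at least 1.20-fold) and Adgre1 (1.19-fold). Siglec1, Folr2 and Vcam1 were tested and not called, with log2 differences of -0.04, 0.03 and -0.08. Cd5l was not tested and read 6.02, 5.88, 7.36 and 7.62 in Ly6Clo, against 5.72 to 5.95 in Ly6Chi. Timd4, Vsig4 and Lyve1 lay below the table median in every array. The part of macrophage RNA in its difference was not tested.

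Axl, a TAM kinase known to be induced by interferon, ranged more widely among the Ly6Clo samples than the subset means lay apart. Its probe set 1423586_at read 8.37, 8.96, 8.18 and 9.22 in the Ly6Clo arrays, against 9.18, 8.94, 8.96 and 8.98 in the Ly6Chi arrays. Ly6Clo replicates 1 and 3 lay below all Ly6Chi arrays, while replicate 4 lay above them all. The mean difference was -0.33 (95% interval -0.74 to 0.09, limma adjusted p = 0.23), and Axl was not called. Without Ly6Clo replicate 4 the difference was -0.51 and was called (limma adjusted p = 0.034). The SD within Ly6Clo, 0.49, was larger than for 99.6% of tested probe sets, whereas the SD within Ly6Chi, 0.11, was near the middle of them. A further probe set, 1438621_x_at, lay at 3.78 to 3.97 in Ly6Clo and 3.79 to 3.96 in Ly6Chi, and was not tested.

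Mertk, the TAM kinase best known for efferocytosis by macrophages, lay below the table median in every array. Its single probe set 1422869_at read 5.58, 5.60, 5.49 and 5.73 in Ly6Clo, against 5.58, 5.61, 5.79 and 5.49 in Ly6Chi. The means, 5.60 and 5.62, differed by less than the spread within either subset, and no difference was detectable at this signal.

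Gas6, the vitamin K-dependent ligand of these kinases, was likewise below the table median in all 8 arrays. Probe set 1417399_at read 6.33, 6.00, 5.98 and 5.99 in Ly6Clo, against 6.22, 6.02, 6.09 and 6.00 in Ly6Chi. Replicate 1 was the highest of each subset by this probe set. By the other, 1459585_at, replicate 1 was the lowest of each, within 5.23 to 5.35 in Ly6Clo and 5.06 to 5.48 in Ly6Chi. The summed intensity of 9 platelet markers was also highest in replicate 1, 7125 of a range from 2792 in Ly6Clo and 5577 of a range from 2423 in Ly6Chi, and the part of platelet RNA in the Gas6 values was not tested.

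Mrc1, the mannose receptor CD206 that binds mannose-rich glycans, was over the table median in every array. Its probe set 1450430_at read 7.99, 7.87, 8.20 and 7.53 in the Ly6Clo arrays, against 8.51, 8.11, 7.87 and 8.49 in the Ly6Chi arrays. The subsets overlapped, and the SD was wide in both, 0.28 in Ly6Clo and 0.31 in Ly6Chi. The difference of -0.35 (95% interval -0.70 to 0.01) was not called (limma adjusted p = 0.13). It was called without Ly6Chi replicate 3, at -0.47 (adjusted p = 0.035).

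Stab1, a large receptor for modified lipoproteins and phosphatidylserine found on sinusoidal endothelium and macrophages, was dim in both subsets. Its probe set 1450199_a_at read 6.50, 6.70, 6.72 and 6.71 in Ly6Clo, against 6.78, 6.79, 6.79 and 6.71 in Ly6Chi. The subsets overlapped, and the difference of -0.11 was not called (95% interval -0.26 to 0.04, limma adjusted p = 0.25). Of 5 tested endothelial markers Vwf was called, 2.51-fold higher in Ly6Clo (limma adjusted p = 0.0013), and 4 were not, and 7 others, among them Cdh5, Tek and Emcn, were not tested. The summed intensity of 12 endothelial markers was 1169 to 1329 in Ly6Clo and 1053 to 1148 in Ly6Chi. This sum includes Vwf, at mean log2 8.17 in Ly6Clo and 6.84 in Ly6Chi. The 4 tested markers without a call had log2 differences of only -0.01 to 0.11. The part of endothelial RNA in the Stab1 values was not tested.

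Cd163, the receptor for haemoglobin bound to haptoglobin, was below the table median in every array. Probe set 1419144_at read 5.16, 4.84, 5.26 and 4.80 in Ly6Clo, against 5.04, 4.69, 4.50 and 4.96 in Ly6Chi. The subsets overlapped and the probe set was not tested.

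**Figure D2:**
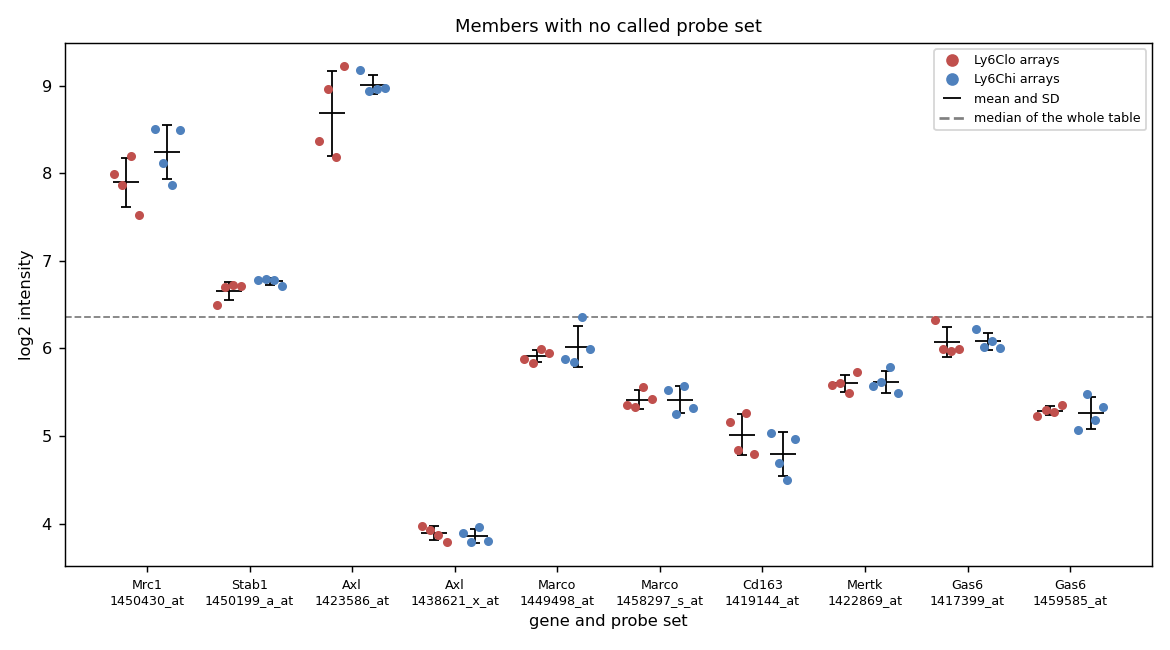
Log2 intensity (vertical axis) of the probe sets of Axl, Mrc1, Stab1, Marco, Cd163, Mertk and Gas6 (horizontal axis), with Ly6Clo arrays in red on the left of each pair, Ly6Chi arrays in blue on the right, black bars for mean and SD, and a dashed line at the table median. The subsets overlap for every one of these probe sets, and the spread of the Ly6Clo arrays is widest for Axl 1423586_at.

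**Figure D3:**
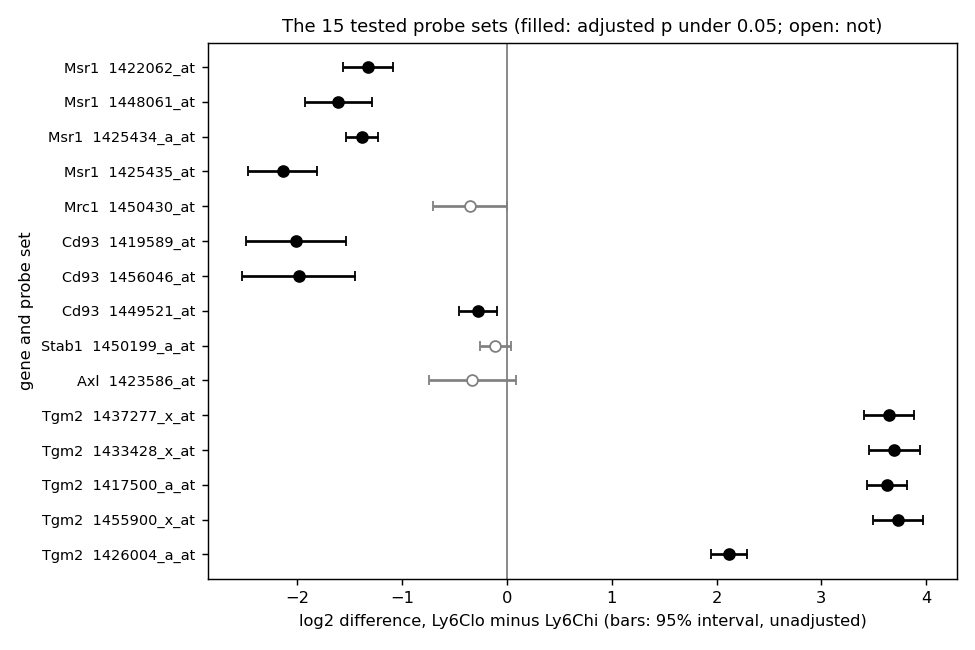
Log2 difference, Ly6Clo minus Ly6Chi (horizontal axis), with its unadjusted 95% interval, for the 15 tested member probe sets (vertical axis); filled points were called and open points were not. The intervals of Mrc1, Stab1 and Axl include 0, and those of Tgm2 lie between 1.95 and 3.97.

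For Cd93, Axl and Tgm2, Ly6Clo replicates 2 and 4 were both higher than replicates 1 and 3 by the brightest probe set, over a range of more than 1 log2 unit for Cd93 and Axl and of 0.19 for Tgm2. This order held for 7 of the 15 tested member probe sets and, by gene, for 3 of the 6 tested members, against 19.8% of all tested genes. The order was read from those same 3 genes, so the member counts lend it no support. Tgm2 1433428_x_at and 1455900_x_at lacked it, with Ly6Clo replicate 4 (12.05 and 11.03) below replicate 3 (12.12 and 11.07). Of the 29 tested genes on the regulator list below 8 had the order (27.6%), and Maf and Fkbp5 are shown because they have it and a wide spread. Maf, a macrophage transcription factor, read 7.15, 8.10, 7.12 and 7.84 in Ly6Clo, against 8.90, 9.21, 9.01 and 9.02 in Ly6Chi. Fkbp5, a target of the glucocorticoid receptor, read 7.77, 10.12, 8.04 and 9.02 in Ly6Clo, against 8.49, 10.26, 9.60 and 8.26 in Ly6Chi. Maf was called lower in Ly6Clo (log2 difference -1.48, limma adjusted p = 0.00011), and Fkbp5 was not called (-0.41, limma adjusted p = 0.62), with a wide SD of its values in both subsets, 1.07 in Ly6Clo and 0.94 in Ly6Chi. With 4 arrays in each subset no correlation is given, and the part of any source of variation between sorts in the Axl and Cd93 spread was not tested.

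**Figure D4:**
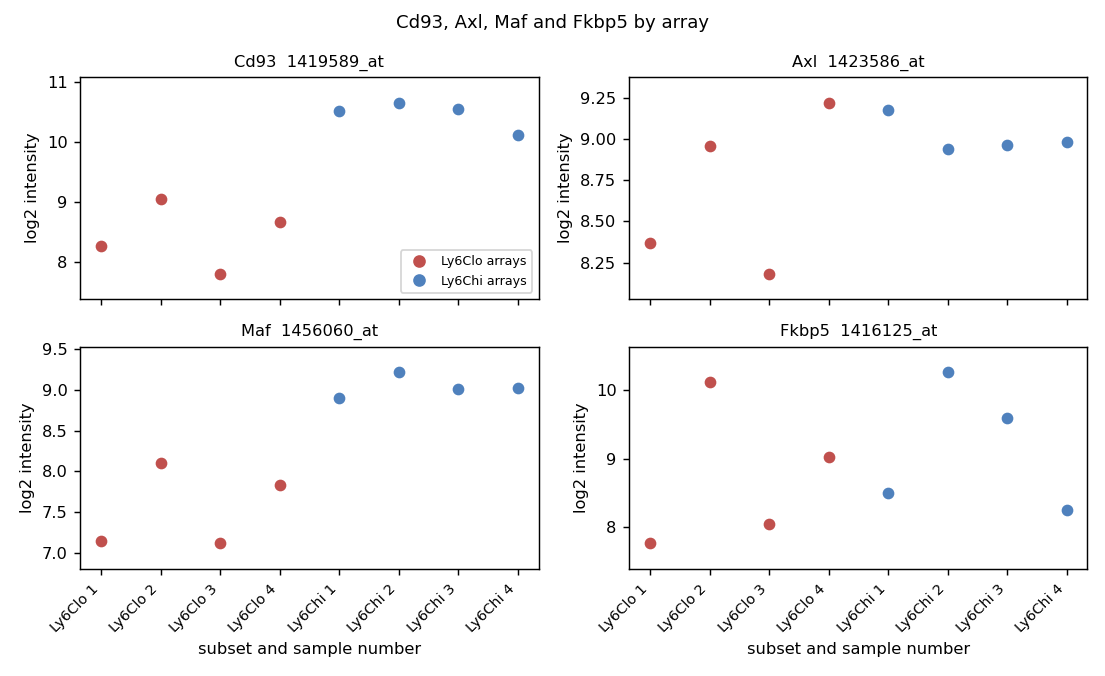
Log2 intensity (vertical axis, a separate scale in each panel) of Cd93, Axl, Maf and Fkbp5 in each array (horizontal axis), Ly6Clo in red on the left and Ly6Chi in blue on the right. Ly6Clo replicates 2 and 4 lie above replicates 1 and 3 in all 4 panels, an order for which Maf and Fkbp5 were chosen.

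For the members that differed at least 2-fold, the tested genes with the most similar profile were found by Euclidean distance over the 8 arrays, after each profile was centred on its own mean. Nearest to Tgm2 were the integrin chain Itgax (distance 0.50), the Fc receptor Fcgr4 (0.82) and the TGF-beta co-receptor Tgfbr3 (0.83). Itgax read 11.12 in Ly6Clo and 7.46 in Ly6Chi (means). Nearest to Msr1 were the interferon-induced GTPase Mx1 (0.26), the glutaminyl cyclase Qpct (0.32) and Emb (0.34). Nearest to Cd93 were the surface enzyme Bst1 (0.38) and the interferon-induced genes Oasl2 (0.50) and Ifit1 (0.53).

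Other genes of these pathways were read from 5 lists, each gene by 1 probe set. The lists were written from general knowledge with earlier results of these data known, so their share called is not independent of these data. Over the lists together 105 genes were tested, 38 were called higher in Ly6Clo and 20 lower (55.2%). Of all 11546 tested genes 32.5% were called, 14.1% higher in Ly6Clo and 18.5% lower. Median differences of the lists, given below, stand beside -0.01 over all tested genes. The lists share some genes.

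Of 15 tested scavenger and pattern receptors outside the 10 members, 3 were called higher in Ly6Clo and 4 lower, with a median difference of 0.08. The class B receptor Cd36, which takes up oxidised lipoproteins and fatty acids, was 18.9-fold higher (limma adjusted p = 1.5e-07), and the lectin Cd209a was 1.87-fold higher. Cd14, which presents lipopolysaccharide, was 2.17-fold lower, and the beta-glucan receptor Clec7a 1.68-fold lower. Of 10 tested structural relatives of the members 2 were higher and 2 lower, with a median of -0.03. Tgm3, another transglutaminase, was 2.18-fold higher in Ly6Clo, whereas F13a1, the transglutaminase subunit of coagulation factor XIII, was 16.3-fold lower (limma adjusted p = 4.4e-09). Thbd, thrombomodulin, which shares the domain plan of Cd93, was 2.09-fold higher, opposite to Cd93. Pros1, the other TAM ligand, was called lower at 1.19-fold (log2 difference -0.25, limma adjusted p = 0.043), a call lost without Ly6Clo replicates 1, 2 or 4 or Ly6Chi replicates 1 or 4 in turn (adjusted p = 0.077 to 0.12). Tyro3, the third TAM kinase, was not tested, at 6.37 in Ly6Clo and 6.25 in Ly6Chi (means).

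Of 24 tested genes of dying-cell recognition and bridging 10 were higher in Ly6Clo and 4 lower, with a median of 0.18. Havcr2 (TIM-3), a phosphatidylserine receptor, was 3.50-fold higher (limma adjusted p = 1.5e-07). C1qa, a chain of complement C1q, was at least 3.06-fold higher, and its Ly6Clo values ranged widely, from 7.19 to 8.81. Trem2, a lipid-binding receptor, was 2.17-fold lower, and the galectin Lgals3 1.49-fold lower. Among integrin chains of dying-cell uptake on this list, Itgav was 1.74-fold and Itgb5 1.68-fold higher, and Itgb3 was not called (log2 difference 0.38, limma adjusted p = 0.079). Mfge8, which bridges phosphatidylserine to these integrins, was 1.37-fold lower. Itgav, Itgb5, Itgb3 and Mfge8 were chosen after their values were seen.

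Of 30 tested genes of engulfment and phagosome handling 9 were higher in Ly6Clo and 4 lower, with a median of 0.02. The kinase Sgk1 was 1.97-fold and the adaptor Crk 1.39-fold higher. The exchange factor Trio was 2.33-fold lower and the lysosomal nuclease Dnase2a 1.85-fold lower. Of 29 tested genes on the list of regulators known for member genes 14 were higher and 7 lower, with a median of 0.25. That list is not limited to regulators, since it also holds the target gene Fkbp5. The nuclear receptor Pparg was 6.72-fold higher in Ly6Clo (limma adjusted p = 7.1e-09) and the TGF-beta receptor Tgfbr1 2.53-fold higher. Beside Maf, at 2.80-fold lower, the interferon signal transducer Stat2 was 1.70-fold lower (limma adjusted p = 0.00024).

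**Figure D5:**
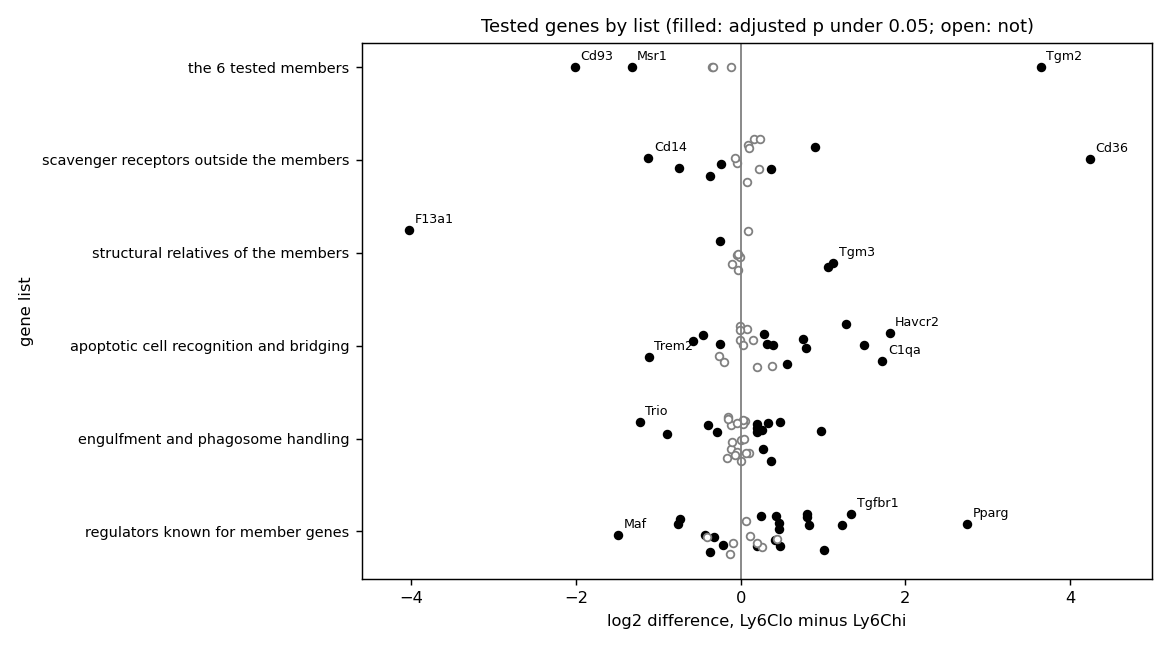
Log2 difference, Ly6Clo minus Ly6Chi (horizontal axis), of each tested gene of the 5 pathway lists and of the 6 tested members (vertical axis, 1 row a list; vertical scatter within a row has no meaning). Filled points were called and open points were not; Cd36 at 4.24 and F13a1 at -4.02 lie at the ends.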

How the data were processed

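The authors deposited 1 table of probe set intensities on a linear scale (8.64 to 27145) for 8 mouse arrays. GCRMA and MAS5 appear in the submitters' processing notes without version or role, so the method behind these intensities stays unknown. Per the labels' protocols, in vitro transcription was extended from 4 h to 64 h, which can alter measured ratios. Of 45101 probe sets 64 controls were left out. Names came from the platform annotation, which gave 34945 probe sets 1 symbol and 932 several. The log2 of each value was used as it stood, without pseudocount or renormalization. Probe sets over the table median in at least 4 arrays (22831) were fitted with limma 3.58.1 (R 4.3.3; lmFit, eBayes, no block, two-sided). Intervals are unadjusted. Folds whose dimmer subset averaged below that median use, per array, the higher of the value and the median. The workflow was tested on simulated data.

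The members and lists were chosen with earlier results of these data known. All 10 members are named, then in each pathway list the 2 called genes with the largest difference each way, and the 3 nearest profiles of each member called at 2-fold or more. Genes outside this rule are marked, apart from called or defining cell markers and Pros1's fellow TAM gene Tyro3. The cell type lists covered monocytes, resident macrophages, neutrophils, dendritic cells, T cells, B cells, NK cells, platelets, endothelium, red cells, and eosinophils with basophils. Alternatives were a replicate block, other filters, normalizations, variance models and array weights, a pseudocount of 64, a threshold of 0.01, averaged probe sets and leaving out arrays.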

Additional observations from a re-analysis of the deposited data

Results flagged for a closer look

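Of 90 sets of 4 arrays checked among the probe sets described, 7 held a sample far from the other 3; chance alone gives about 1 in 20. Ly6Chi replicate 3 read 6.97 for Cd93 1449521_at, against 6.62 to 6.65 in the others. Ly6Chi replicate 4 read 5.73 for Cd93 1441908_x_at, against 5.92 to 5.96. For Stab1 1450199_a_at, Ly6Clo replicate 1 read 6.50, against 6.70 to 6.72, and Ly6Chi replicate 4 read 6.71, against 6.78 to 6.79. Ly6Clo replicate 1 read 6.33 for Gas6 1417399_at, against 5.98 to 6.00. Ly6Clo replicate 2 read 5.45 for Tgm2 1438942_x_at, against 5.17 to 5.19. Ly6Clo replicate 4 read 11.61 for the TGF-beta receptor Tgfbr1, against 11.80 to 11.83.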

How the results depend on the processing

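The count of called member probe sets was 12 of 15 and lay between 11 and 13 when each array was left out in turn. Under the same omissions the total over all probe sets was 6229 to 6761, against 7108, and the called pathway genes numbered 51 to 56, against 58. Wherever tested, the called probe sets of Tgm2 and Msr1 and the brighter pair of Cd93 kept their direction and call under each alternative. Log2 differences ran from 3.36 to 3.73 for Tgm2 (1437277_x_at), -1.61 to -1.21 for Msr1 (1422062_at) and -2.21 to -1.43 for Cd93 (1419589_at). The ends 3.36, -1.61 and -1.43 are not values of these probe sets alone. They came from averaging all tested probe sets of the gene. Cd93 1449521_at also missed the threshold of 0.01 (adjusted p = 0.025). With no filter 15 of 25 member probe sets were called, the additional ones being dim probe sets of Cd93 and Tgm2. The pseudocount of 64 moved those dim differences to -0.38 (Cd93 1441907_s_at), -0.12 (Cd93 1441908_x_at) and 0.22 (Tgm2 1438942_x_at). With no filter Marco, Cd163, Mertk and Gas6 had adjusted p of 0.36 to 1. The Pros1 call was also lost at the threshold of 0.01, with no filter and with the replicate block (adjusted p = 0.069 in both), and without replicate 1 of both subsets (0.21). With the replicate block 12 member probe sets were called, 7164 in all and 58 pathway genes. The labels do not say that equal numbers mark a shared sort, so same-numbered samples were not treated as pairs. Their deviations from their group means correlated at -0.10 to 0.34, and not every sample correlated best with its own number. With 4 samples in each subset, these correlations cannot tell whether a sort was shared. The number of arrays and the dim signal of Marco, Cd163, Mertk and Gas6 limit what could be detected.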

Other observations

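Markers of platelets and red cells varied between samples within each subset, and limma called none of 9 tested platelet genes and none of 4 tested red cell genes (1 and 0 at an unadjusted p under 0.05). Their summed intensities were highest in replicate 1 of each subset. The red cell sum ranged from 1215 to 4718 in Ly6Clo and from 1149 to 3238 in Ly6Chi.

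Of 6 tested B cell markers 3 were called lower in Ly6Clo and none higher, and Ms4a1 (CD20) was at least 1.68-fold lower. Among all tested genes 18.5% were called lower and 14.1% higher. Of 4 tested NK cell markers only the granzyme Gzma was called, 1.64-fold higher in Ly6Clo. None of 6 tested T cell markers was called with limma (1 at an unadjusted p under 0.05), and no marker of eosinophils or basophils passed the filter. Of 8 tested genes on the dendritic cell list 2 were higher in Ly6Clo and 3 lower. Klrd1 was 3.19-fold higher, but it encodes CD94, a receptor chain of NK cells, and is not particular to dendritic cells. Cd209a was 1.87-fold higher, and Bst2 1.92-fold, Batf3 1.62-fold and Flt3 1.46-fold lower.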
